A study of Mus musculus with 12 samples.

Results

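The 28 genes of the small ribosomal subunit, the 40S subunit of the mouse ribosome, were followed through translation and mRNA level in whole embryos with and without a loss-of-function allele of Rpl10a. The genes were taken by name as the protein components of this subunit, Rpsa, Fau and 26 genes of the Rps series, and all 28 were found among the 22467 transcripts of the count table. The embryos were collected at E8.5 from mice kept on a C57BL/6 background. There were 3 wild-type (Rpl10a +/+) and 3 Rpl10a LOF/LOF embryos, the latter homozygous for an allele made by CRISPR injection that encodes an extended RPL10A. Each embryo was lysed on its own in cycloheximide, which holds ribosomes on the mRNA, and gave 1 library of ribosome-protected fragments (RPF) and 1 RNA-seq library, so that 12 libraries were compared and no embryos were pooled.

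The 40S subunit binds the mRNA and finds the start codon, and its head and body close around the mRNA path, where codon and anticodon meet. Its proteins are made in the cytoplasm, imported into the nucleolus and built onto the 18S rRNA. Their mRNAs are among the most abundant in growing embryonic cells. Most belong to the TOP mRNAs, which begin with a C followed by a run of pyrimidines and whose translation follows mTOR signaling through the cap-region binding protein LARP1. RPL10A sits in the L1 stalk of the other subunit, the 60S.

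RPF libraries held 8543503 to 10863499 counts in wild-type and 7041357 to 10427810 in Rpl10a LOF/LOF embryos, and RNA libraries 9132521 to 26561843 and 9570935 to 20664803. Rpl10a, the targeted gene, had 1562 to 1679 CPM (counts scaled to the library total, itself adjusted by TMM) of RPF in wild-type and 940 to 1125 CPM in Rpl10a LOF/LOF embryos, a log2 fold change of -0.64 (SE 0.07, FDR = 0.0069, edgeR quasi-likelihood test). With an embryo left out this stayed between -0.71 and -0.58, and its FDR was 0.102 without WT replicate 2. Rpl10a RNA was lower as well (log2 fold change -0.23, SE 0.06, FDR = 0.0678, edgeR), and was called in 2 of the 6 fits that left out an embryo. The RPF change of Rpl10a beyond its RNA change was -0.42 and was not called (FDR = 0.974, edgeR). All 8 markers of embryonic lineages on a fixed list, among them T and Sox2, had counts in every RNA library. Other features of the embryos also moved with genotype. In CPM of the unadjusted library total, summed RPF of 10 visceral endoderm markers was 6870 to 9160 CPM in wild-type and 2590 to 5300 CPM in Rpl10a LOF/LOF embryos. Summed RPF of 8 primitive erythroid markers was 838 to 2820 and 3460 to 5820 CPM. In RNA the visceral endoderm sums were also apart, at 3330 to 4180 and 999 to 2340 CPM. The erythroid sums overlapped in RNA, at 395 to 1650 and 1470 to 2450 CPM. Y-linked RPF was 154 to 183 CPM in the wild-type embryos and LOF replicate 2, but 9.09 and 0.384 CPM in LOF replicates 1 and 3, so the sex of the embryos is uneven between genotypes. The part of these features in the values of the small subunit genes was not tested beyond the fit with a Y-linked covariate given beside the results. Y-linked RPF was low only in LOF replicates 1 and 3, so that fit cannot fully separate sex from genotype. Replicates are separate embryos.

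Pyrimidine tracts, the feature by which TOP mRNAs are known, were looked for near the annotated starts of the genes. RefSeq promoters (GRCm38.p6) were available for 24 of the 28 genes and were searched on the sense strand, within 50 bases on either side of the annotated start, for a run of at least 8 bases that opens with C and holds only C and T. Such a tract was present in 18 of the 24 (75%), against 32.0% of the 27025 genes in the promoter table, and 14 had a tract of at least 10 bases, against 16.4% of all genes. Rpsa, Rps3, Rps3a1, Rps4x, Rps13 and Rps28 had none in this window, which says nothing more than that these letters are not there. Rps14, Rps20, Rps27a and Rps29 were not in the table. In 6 of the 24 genes, Rps6, Rps9, Rps10, Rps18, Rps27 and Fau, the longest tract spanned the RefSeq start, as it did in 3.13% of all genes, and in the other 12 it lay to one side. The counted transcripts often begin at another base, and of the 18 tracts 1, that of Rps24, spanned the 5′ end of the counted transcript. The windows therefore show tracts near annotated starts, and which base the mRNA begins with in these embryos was not measured. The 30-base windows below are shown for the 3 genes with the highest and the 3 with the lowest ratio of RPF to RNA per length in wild-type embryos, for Rps19, which had the smallest p for RNA between genotypes, and for Rps6, whose tract opens 1 base before the RefSeq start. Tracts are in capitals and sequences run 5′ to 3′ along the gene. Counted from the RefSeq start at 0, the tract opens at -36 in Rps24, -22 in Rps25, -43 in Rps19, 22 in Rps7, 35 in Rps23 and 40 in Rps2.
Rps24, chr14:24490711-24490740, plus strand: agcggtCCTCTTTTCCTCCTCTCCagctcc
Rps23, chr13:90923142-90923171, plus strand: tgggtccttcctgcaCCTCCTCTCTCTTTC
Rps25, chr9:44407684-44407713, plus strand: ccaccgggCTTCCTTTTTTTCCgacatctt
Fau, chr19:6057937-6057966, plus strand: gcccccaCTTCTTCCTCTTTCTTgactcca
Rps7, chr12:28635910-28635939, minus strand: tgtccccaCCTCTTTTCTTCCgccacccgg
Rps2, chr17:24720083-24720112, plus strand: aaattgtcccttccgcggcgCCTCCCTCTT
Rps19, chr7:24884624-24884653, plus strand: cccgtcgttCCCTTTCCCCTggctggcagc
Rps6, chr4:86857349-86857378, minus strand: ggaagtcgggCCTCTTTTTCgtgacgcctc
The longest tract, 18 bases in Rps24, and tracts of 15 and 14 bases in Rps23 and Rps25 accompanied the highest ratios, but the 16-base tract of Fau and the 13-base tract of Rps7 accompanied the lowest. Tract length therefore did not order these 6 genes by their ratio. The windows of Rps23 and Rps2 end at the edge of the searched sequence, so their tracts could be longer.

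In wild-type embryos most small subunit genes were among the most heavily translated of all. RPF were counted on the coding sequence less 15 codons at its start and 5 at its end and RNA on the whole transcript, so levels were compared between genes per kilobase of the counted length. Transcripts above 0.75 CPM in 3 or more of the RPF libraries were tested, which kept 26 of the 28 genes and 12576 transcripts in all. The median of the 26 genes was 2303 CPM per kb of RPF and 591 CPM per kb of RNA, where the median over all transcripts tested was 13.9 and 10.2. In RPF, 22 of the 26 lay at percentile 94.8 or above of all transcripts, and 16 were in the highest 1%. The 28 genes together took 1.99% to 2.06% of the RPF counts of a wild-type library and 1.46% to 1.56% of the RNA counts. The 95% Wilson intervals of these shares, which cover counting error only, were at most 0.02 percentage points wide.

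Rps29, which encodes a zinc-binding protein of the head, had the highest RPF level, at 4594, 5138 and 4777 CPM per kb in wild-type replicates 1, 2 and 3. Rps21, a protein of the body, followed at 3595, 3898 and 4132 CPM per kb of RPF. Rps27a, which is made as a fusion to ubiquitin, was at 3764, 3780 and 3826 CPM per kb. These 3 genes kept their order in the mean, but the embryos of Rps21 and Rps27a overlapped. Rps29 also had the highest RNA level, 1471 ± 69.7 CPM per kb (SD, n = 3), next to Rps3a1 at 1469 ± 47.6 CPM per kb, a difference well inside their spread.

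**Figure D1:**
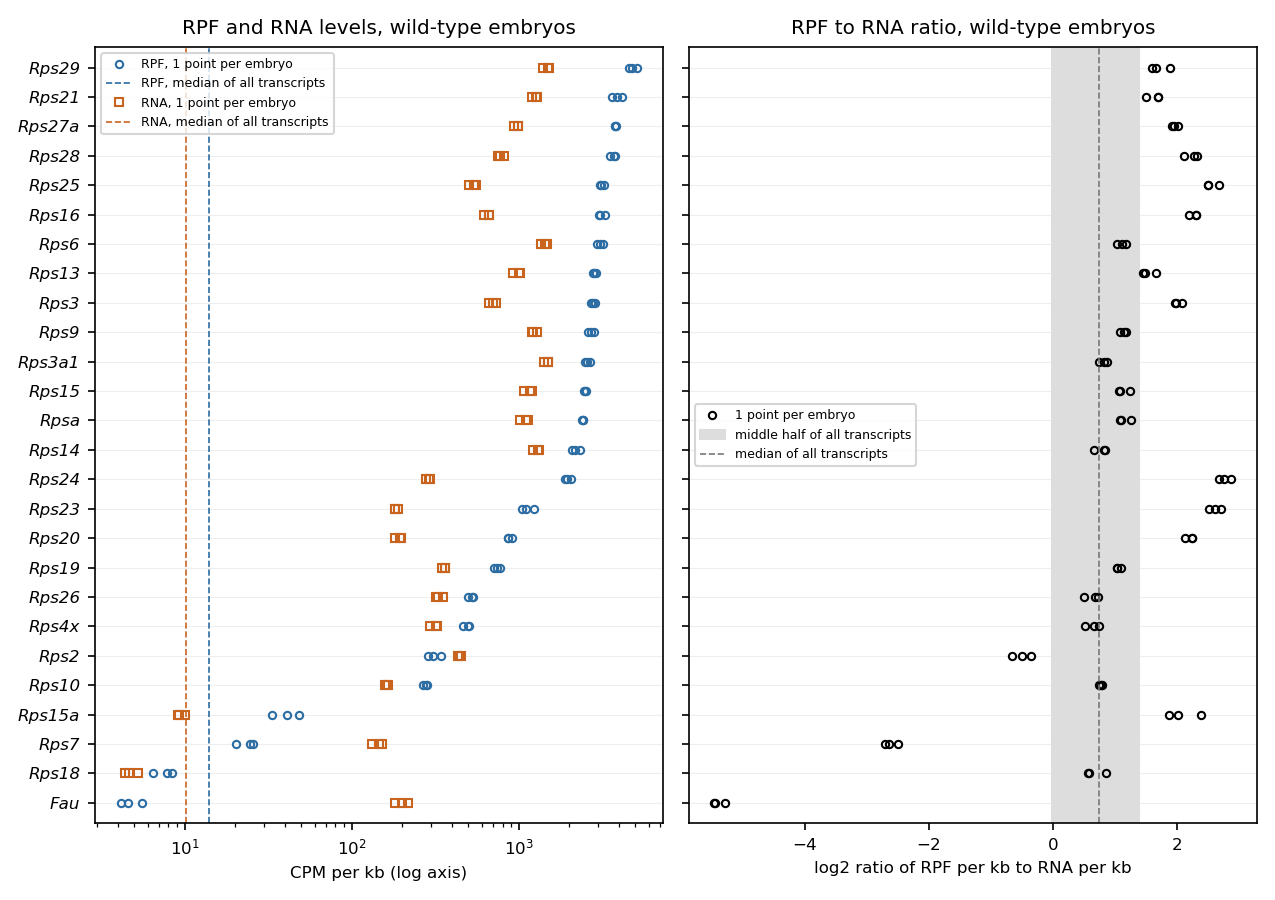
RPF and RNA levels of 26 small subunit genes in wild-type embryos (left, CPM per kb on a log axis) and the log2 ratio of RPF per kb to RNA per kb (right), 1 point per embryo. In the left panel dashed lines mark the medians of all transcripts tested, and in the right panel the line and the grey band mark their median and interquartile range. All but Fau, Rps18, Rps7 and Rps15a lie far to the right in RPF, and Fau and Rps7 have ratios far below the rest.

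A few genes stood far below the others. Fau, whose product is a ubiquitin-like protein joined to the ribosomal protein eS30, had 4.58, 4.14 and 5.54 CPM per kb of RPF in the 3 wild-type embryos, from 17, 12 and 18 counts, although its RNA was 200.1 ± 17.8 CPM per kb (SD, n = 3). Rps18, a head protein, had 7.85, 6.5 and 8.42 CPM per kb of RPF and 5.24, 4.38 and 4.65 CPM per kb of RNA. Rps7, a body protein whose gene is affected in some families with Diamond-Blackfan anemia, had 25.7, 20.2 and 24.6 CPM per kb of RPF and 143 ± 10.5 CPM per kb of RNA. Fau and Rps7 were therefore low in RPF alone, and Rps18 in both measures. Rps15a was low as well, at 40.8 ± 7.43 CPM per kb of RPF, and its table entry is a transcript of 5179 bases for a coding sequence of 390 bases, which enters the RNA level through the length. Rps12 and Rps27 had 0 RPF counts in all 6 RPF libraries, which allows at most 0.437 CPM of reads assigned to these genes in the shallowest library. In RNA they had 90 to 422 and 4 to 14 counts per library.

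Many of these genes share their coding sequence with copies elsewhere in the genome, and how the authors assigned reads that fit several transcripts is not given in the sources used here. The counted coding sequences were therefore cut into words of 30 bases, about the length of a footprint, and compared with the other transcripts of the table. Most of the words were found in another transcript of the table for 5 of the 28 genes, Rps27 (100.0%, in Rps27rt), Rps10 (94.1%, in RPS10-NUDT3), Rps18 (87.7%), Rps15a (72.4%) and Rps2 (57.5%), against 1.62% of all transcripts tested. Another 18 shared no word within the table, among them Fau, Rps7 and Rps12. In GENCODE as a whole, which holds many processed pseudogenes, 13 of the 28 genes had every coding word in some other gene, Fau, Rps7 and Rps12 included, but so did Rps6, Rps13, Rps16 and Rps28, whose RPF levels were 2847 to 3683 CPM per kb. The levels of Rps27, Rps10, Rps18, Rps15a and Rps2 are uncertain for this reason, and the part of shared sequence in the low values was not tested.

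Relative to their mRNA, small subunit genes carried more footprints than the middle transcript. The log2 ratio of RPF per kb to RNA per kb had a median of 1.14 over the 26 genes and of 0.75 over the 12560 transcripts with a ratio, and 20 of the 26 lay above the latter. Since RPF and RNA libraries were scaled separately, only differences between genes can be read from it. The ratio was highest for Rps24, needed for 18S rRNA maturation, at 2.75, 2.87 and 2.68 in the 3 wild-type embryos. Rps23, which lies at the decoding center, had 2.61, 2.52 and 2.70. Rps25, which several viral IRES elements depend on, had 2.50, 2.67 and 2.50. The embryos of Rps23 overlapped with those of Rps24 and of Rps25, while every embryo of Rps24 was above every embryo of Rps25. The lowest ratios were those of Fau, at -5.46, -5.45 and -5.29, and Rps7, at -2.50, -2.71 and -2.64. Next was Rps2, a body protein near the mRNA entry, at -0.50, -0.36 and -0.65. The remaining 20 genes lay between 0.64 (Rps26) and 2.27 (Rps16). Without division by length the medians were 0.31 for the 26 genes and -0.34 for all transcripts, and 20 of the 26 were again above the latter. The order of the genes was different there, with Rps23 (1.26), Rps27a (1.00) and Rps13 (0.95) highest and Rps24 at 0.52. Fau and Rps7 were again the lowest, followed by Rps15a (-1.88) and Rps20 (-1.44), both below Rps2 (-0.79). The lengths of Fau and Rps14 were taken from another version of their transcript.

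None of the 26 genes differed in RPF between genotypes at FDR < 0.1 (edgeR quasi-likelihood test, adjusted over 12576 transcripts), where 2.19% of all transcripts did. None had an unadjusted p under 0.05 either, against 13.7% of all transcripts. With DESeq2 and with limma-voom 0 genes passed the FDR, against 266 and 329 of the 12576 transcripts. In each of these tools 1 gene had an unadjusted p under 0.05. The median log2 fold change was -0.01, against 0.00 over all transcripts, with 11 genes higher in Rpl10a LOF/LOF embryos and 15 lower. The embryos of the genotypes overlapped in every gene, where 9.92% of all transcripts had all Rpl10a LOF/LOF embryos above all wild-type embryos and 9.45% had them below. Of the 11 genes of the head 5 were higher, and of the 15 genes of the body and platform 6 were higher. In a whole embryo, fewer cells of a type and less RNA per cell cannot be told apart. For the 22 genes with at least 100 CPM in every RPF library, a limit set after the values were seen, every 95% interval of the RPF difference lay between -0.48 and 0.32 on the log2 scale, that is between 0.719 and 1.25 times the wild-type level. The 4 other genes were measured less well, with a widest interval from -0.70 to 0.69 for Rps18.

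**Figure D2:**
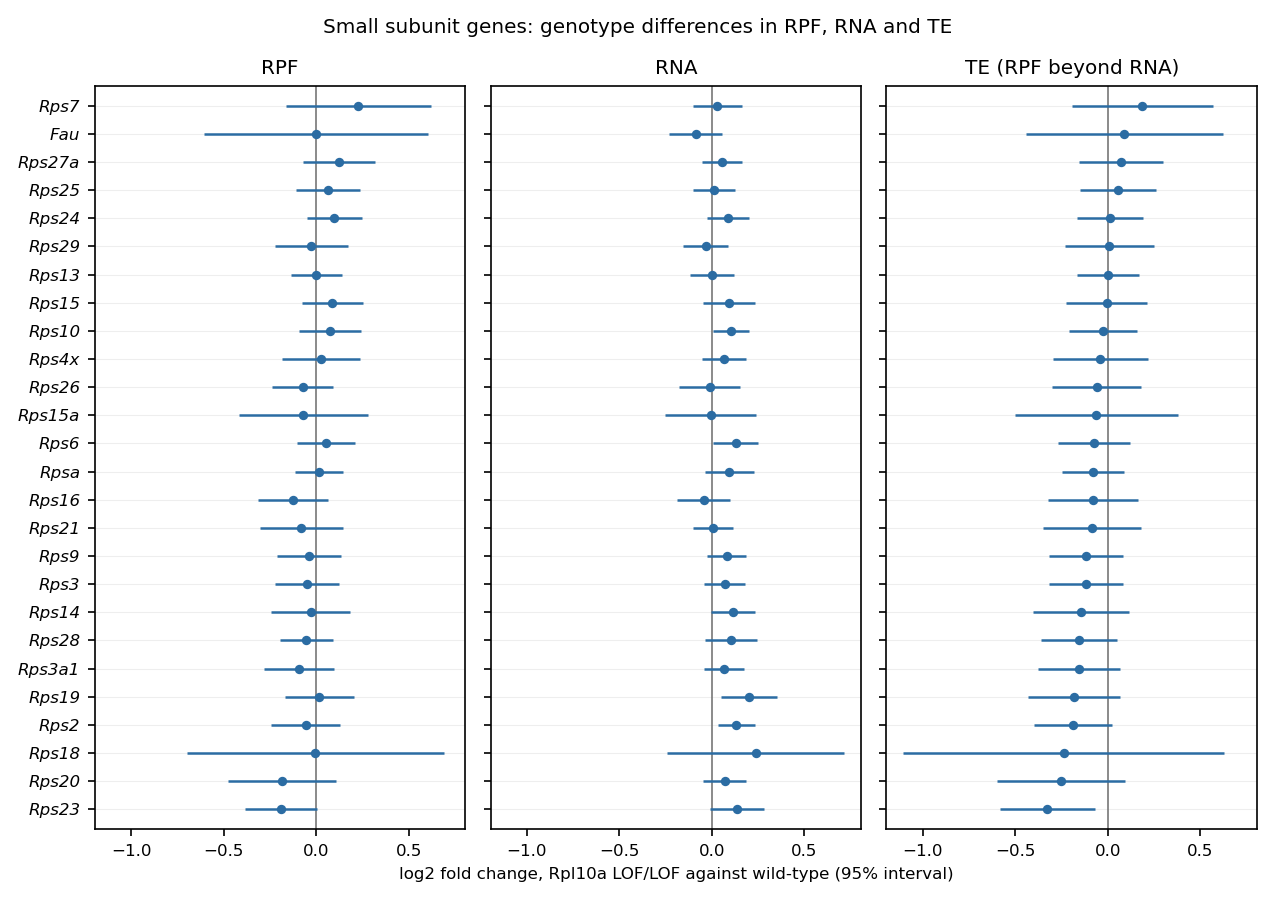
Log2 fold change of Rpl10a LOF/LOF against wild-type embryos for 26 small subunit genes in RPF, RNA and TE (points) with 95% intervals (lines), from edgeR, sorted by TE. In RPF every interval includes 0. In RNA those of Rps19, Rps2, Rps10 and Rps6 lie above 0, and in TE that of Rps23 lies below 0, none past FDR < 0.1.

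Rps23 came closest in RPF. Its RPF were 409, 386 and 454 CPM in wild-type and 367, 403 and 326 CPM in Rpl10a LOF/LOF embryos. LOF replicates 1 and 3 were below all wild-type embryos and replicate 2 was within their range. The log2 fold change was -0.19 (95% interval -0.38 to 0.00, FDR = 0.373, edgeR). It was -0.11 without LOF replicate 3 and -0.03 with the Y-linked covariate.

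Rps20, a protein of the head, had 272.0, 256.2 and 256.3 CPM of RPF in wild-type and 183, 292 and 215 CPM in Rpl10a LOF/LOF embryos. LOF replicate 2 was the highest and replicates 1 and 3 were the lowest of the 6 embryos. The log2 fold change of -0.18 had a 95% interval of -0.48 to 0.11 (FDR = 0.59, edgeR). It was -0.39 (FDR = 0.0131) without LOF replicate 2, where Rps23 also passed (-0.27, FDR = 0.0752) and 11.5% of all transcripts were called. It was -0.05 (FDR = 0.885) without LOF replicate 1 and 0.09 with the Y-linked covariate.

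Rps27a went the other way, at 1536, 1542 and 1561 CPM of RPF in wild-type and 1961, 1557 and 1543 CPM in Rpl10a LOF/LOF embryos. The wild-type embryos were tight and LOF replicate 1 alone stood above them. Its log2 fold change was 0.12 (95% interval -0.07 to 0.32), and 0.00 at the lowest with an embryo left out. Rps24 had 660, 695 and 644 CPM of RPF in wild-type and 764, 676 and 702 CPM in Rpl10a LOF/LOF embryos, a log2 fold change of 0.10 (95% interval -0.05 to 0.25) that was 0.04 without LOF replicate 1. Rps16, a head protein whose tail reaches the P site, had 1153, 1149 and 1245 CPM in wild-type and 1184, 1129 and 937 CPM in Rpl10a LOF/LOF embryos, a log2 fold change of -0.13 (95% interval -0.31 to 0.06). This was -0.03 without LOF replicate 3 and -0.01 with the Y-linked covariate. In both genes the groups overlapped, and in Rps16 LOF replicate 3 was far below the wild-type embryos. With surrogate variables (limma-voom with sva), 3 genes passed FDR < 0.1 in RPF, Rps3a1 (-0.11), Rps16 (-0.12) and Rps27a (0.09), a setting in which 10.4% of all transcripts passed.

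In RNA most small subunit genes had slightly higher values in Rpl10a LOF/LOF embryos. No gene passed FDR < 0.1, against 5.02% of all transcripts. By DESeq2 1 gene did, Rps19 (FDR = 0.078), against 4.92% of all transcripts. By limma-voom 0 did, against 708 of the 12576 transcripts. These 2 tools gave 4 and 5 genes at an unadjusted p under 0.05. With edgeR, 4 of the 26 had an unadjusted p under 0.05, all higher in Rpl10a LOF/LOF, where 17.0% of all transcripts had such a p and 7.44% were higher with it. The median log2 fold change was 0.07 against -0.00 over all transcripts, and 21 of the 26 genes were higher, 9 of 11 in the head and 12 of 15 in the body and platform. In 9 genes all 3 Rpl10a LOF/LOF embryos lay above all 3 wild-type embryos (34.6%), against 10.2% of all transcripts, and in 0 of the 26 they lay below, against 12.6%. The genes share libraries and their scaling, so these counts are a description. With the Y-linked covariate the median was 0.03. With an embryo left out it ran from 0.04 (without WT replicate 2) to 0.09. For the 22 better measured genes the 95% intervals lay between -0.19 and 0.35.

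Rps19, the gene most often mutated in Diamond-Blackfan anemia, had 281, 269 and 279 CPM of RNA in wild-type and 288, 313 and 351 CPM in Rpl10a LOF/LOF embryos. All Rpl10a LOF/LOF embryos were above all wild-type embryos, LOF replicate 1 by little. The log2 fold change was 0.20 (SE 0.07, unadjusted p = 0.0149, FDR = 0.17, edgeR), and without LOF replicate 1 it was 0.26 (FDR = 0.0814), where 3.5% of all transcripts were called. It was 0.12 (FDR = 0.318) without LOF replicate 3 and 0.13 (FDR = 0.785) with the Y-linked covariate. Of its coding words, 35.8% also occur in another transcript of the table. An exact permutation test of 3 embryos against 3 can give no p below 0.1.

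Rps2 had 433, 441 and 450 CPM of RNA in wild-type and 473, 489 and 487 CPM in Rpl10a LOF/LOF embryos. The groups did not overlap and were narrow, and the log2 fold change was 0.13 (SE 0.04, unadjusted p = 0.0152, FDR = 0.172, edgeR). Rps10, a head protein next to the mRNA entry channel, had 106, 103 and 103 CPM in wild-type and 110, 112 and 113 CPM in Rpl10a LOF/LOF embryos. Its log2 fold change was 0.10 (SE 0.04), again without overlap.

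Rps6, the 40S protein phosphorylated by S6 kinase downstream of mTOR, had 1260, 1188 and 1290 CPM of RNA in wild-type and 1337, 1310 and 1438 CPM in Rpl10a LOF/LOF embryos. Rps14, a platform protein, had 787, 730 and 776 CPM in wild-type and 798, 810 and 871 CPM in Rpl10a LOF/LOF embryos. In both genes LOF replicate 3 was the highest and no Rpl10a LOF/LOF embryo fell below a wild-type embryo, with log2 fold changes of 0.13 (SE 0.06) and 0.11 (SE 0.05). These were 0.06 in each gene with the Y-linked covariate, and 0.09 and 0.07 without LOF replicate 3. Rps3a1, Rps9, Rps24 and Rps27a were the other genes without overlap, with log2 fold changes of 0.06, 0.08, 0.09 and 0.05. The 5 genes with a lower RNA mean in the fit were Fau (-0.09), Rps16 (-0.05), Rps29 (-0.03), Rps26 (-0.01) and Rps15a (-0.01), all with intervals that include 0. Rps12 and Rps27, fitted without the filter, had RNA log2 fold changes of -0.15 (SE 0.15) and 0.91 (SE 0.44), the latter on 4 to 14 counts per library.

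Translation efficiency (TE), the RPF change beyond the RNA change (the genotype-by-library interaction), gave no call among the 26 genes and 0.0% among all transcripts (edgeR, FDR < 0.1). By DESeq2 and limma-voom 0 of the 26 passed as well, where 4 and 0 of all transcripts did. In each of the 3 tools 1 gene had an unadjusted p under 0.05, where 4.44% of all transcripts did in edgeR. The median log2 fold change in TE was -0.08 against 0.01 over all transcripts, and 19 of the 26 genes were lower. This direction rested on few embryos, since the median was -0.00 without LOF replicate 3 and 0.02 with the Y-linked covariate. For the 22 better measured genes the 95% intervals lay between -0.60 and 0.30.

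The gene with a small p in TE was Rps23. The log2 ratio of its RPF to its RNA, set against the wild-type mean, was -0.00, -0.09 and 0.09 in wild-type and -0.18, -0.18 and -0.63 in Rpl10a LOF/LOF embryos. It was the 1 gene of 26 in which all Rpl10a LOF/LOF embryos were below all wild-type embryos, as were 5.23% of all transcripts. The log2 fold change in TE was -0.33 (SE 0.12, 95% interval -0.58 to -0.07, unadjusted p = 0.0165, FDR = 1.00, edgeR), the RPF being lower and the RNA, at 171, 171 and 177 CPM in wild-type and 173, 189 and 210 CPM in Rpl10a LOF/LOF embryos, higher in the mean. The TE value was -0.18 without LOF replicate 3 and -0.11 with the Y-linked covariate. Of the coding words of Rps23, 29.1% also occur in another transcript of the table.

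The next smallest p values in TE belonged to Rps2 at -0.19 (SE 0.10), Rps28 at -0.16 (SE 0.10), Rps20 at -0.25 (SE 0.16) and Rps19 at -0.18 (SE 0.12). Rps28 is a head protein that contacts the mRNA near its exit, and its RPF were 550, 557 and 518 CPM in wild-type and 554, 521 and 492 CPM in Rpl10a LOF/LOF embryos. Its RNA was 340, 331 and 354 CPM in wild-type and 341, 358 and 403 CPM in Rpl10a LOF/LOF embryos. Both measures overlapped between the groups. Without LOF replicate 3 the TE value was -0.04 in Rps28 and -0.05 in Rps19, and without LOF replicate 1 it was -0.25 and -0.35. That of Rps20 was -0.13 without LOF replicate 1, -0.48 without LOF replicate 2 and 0.07 with the Y-linked covariate, which left Rps2 at -0.11 and Rps28 at -0.05.

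**Figure D3:**
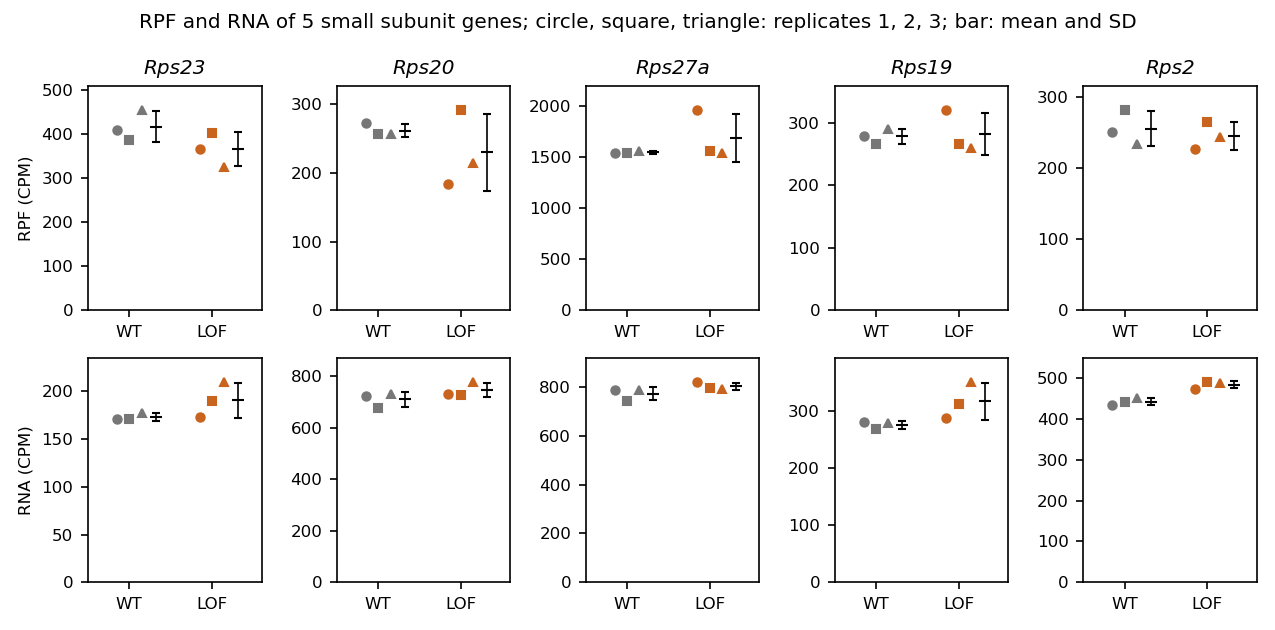
RPF (top) and RNA (bottom) of Rps23, Rps20, Rps27a, Rps19 and Rps2 in CPM, 1 point per embryo with mean and SD (n = 3) beside it. In RPF the groups overlap in all 5 genes, and in RNA the Rpl10a LOF/LOF embryos lie above the wild-type embryos for Rps27a, Rps19 and Rps2.

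In RPF the 3 Rpl10a LOF/LOF embryos differed from each other more than the wild-type embryos did. The median SD of log2 RPF over the 26 genes was 0.06 in wild-type and 0.16 in Rpl10a LOF/LOF embryos, against 0.10 and 0.17 over all transcripts, and in RNA it was 0.06 in each genotype. Set against the wild-type mean of each gene, the median RPF of the 26 genes was 0.15 in LOF replicate 1, 0.00 in replicate 2 and -0.10 in replicate 3. In LOF replicate 1, 17 of the 26 genes (65.4%) were above all wild-type embryos, against 35.5% of all transcripts. In LOF replicate 3, 17 genes (65.4%) were below all wild-type embryos, against 33.2% of all transcripts. Both held at once for 12 genes (46.2%), against 5.97% of all transcripts, 53.5% of 43 large subunit genes, 27.3% of 22 other TOP mRNAs and 17.2% of 29 mitochondrial small subunit genes.

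**Figure D4:**
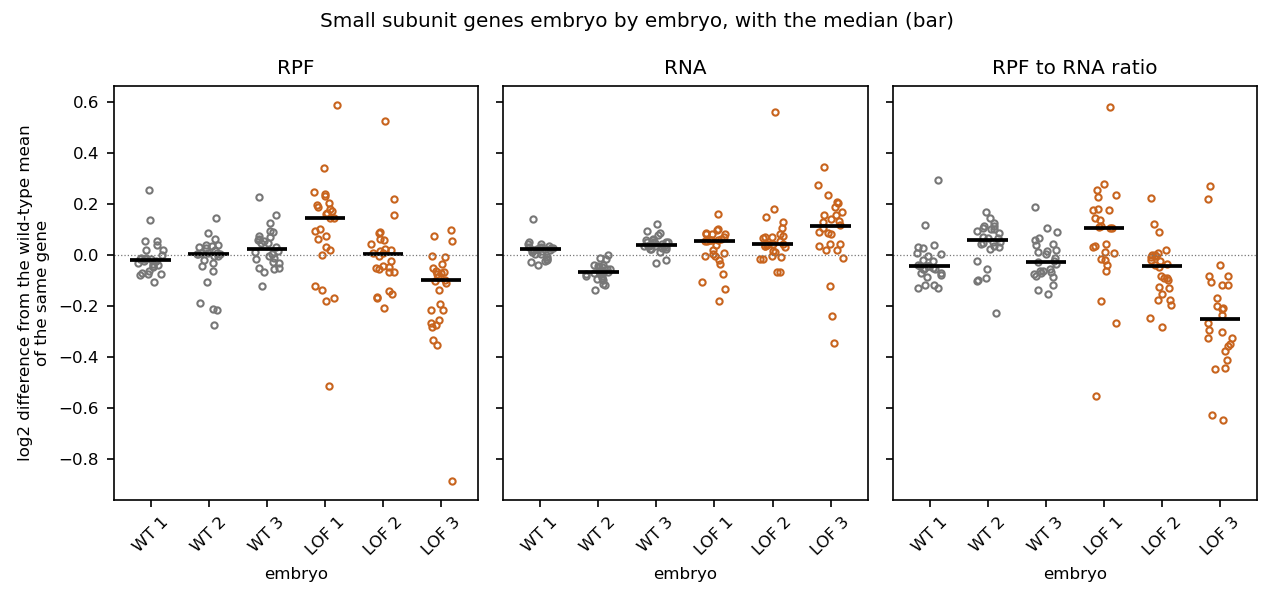
Log2 difference of each of 26 small subunit genes from its wild-type mean in RPF, RNA and their ratio, by embryo, with the median as a bar. In RPF the medians of LOF replicates 1, 2 and 3 are 0.15, 0.00 and -0.10, and in the ratio 0.11, -0.04 and -0.25. The wild-type medians run from -0.02 to 0.02 in RPF, from -0.07 to 0.04 in RNA and from -0.04 to 0.06 in the ratio.

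RNA did not follow this pattern. The median RNA difference from the wild-type mean was 0.06, 0.04 and 0.11 in LOF replicates 1, 2 and 3. In wild-type replicates 1, 2 and 3 it was 0.02, -0.07 and 0.04, with all 26 genes of replicate 2 below that mean. LOF replicate 3 was the lowest of the 3 Rpl10a LOF/LOF embryos in RPF for 19 of the 26 genes. In RNA it was the highest of them for 20. The median log2 ratio of RPF to RNA was accordingly 0.11, -0.04 and -0.25, with 21 genes of LOF replicate 3 (80.8%) below all wild-type embryos, against 29.6% of all transcripts and 79.1% of the large subunit genes. LOF replicate 3 also had the lowest visceral endoderm RPF (2590 CPM) and the highest summed RPF of 6 trophoblast markers (43.7 CPM against 11.5 to 19.3 in the other embryos). Of these markers, Plac1 had 3.47 to 15.5 CPM of RNA, and the others had at most 1.99 CPM. LOF replicates 1 and 3 were the embryos with low Y-linked RPF. LOF replicate 1 had the fewest RPF counts. The part of these differences in the values of the small subunit genes was not tested.

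The shared behaviour of the 2 outer embryos is visible in single genes. Rps21 had 679, 737 and 781 CPM of RPF in wild-type and 817, 658 and 605 CPM in LOF replicates 1, 2 and 3. Rps14 had 817, 849 and 914 CPM in wild-type and 973, 834 and 721 CPM in Rpl10a LOF/LOF embryos. In both genes replicate 1 was above and replicate 3 below the whole wild-type range. Rps25 had 969, 1019 and 982 CPM in wild-type and 1170, 976 and 966 CPM in Rpl10a LOF/LOF embryos, so that here too replicate 1 was the highest and replicate 3 the lowest of the 6. Rps20 and Rps2 went differently, with replicate 1 the lowest and replicate 2 the highest of the 3 Rpl10a LOF/LOF embryos.

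Genes that work with the small subunit were taken from lists of paralogs, assembly factors, TOP regulators and other TOP mRNAs. Of 29 assembly factors, which build and export the 40S precursor, 25 were higher in RPF and 25 in RNA, with medians of 0.15 and 0.11. In RPF 1 of 29 was called, Utp14a (0.33, FDR = 0.0979, edgeR), near the 2.19% of all transcripts, and in RNA 5 were, all higher (17.2%, against 1.77% of all transcripts called higher). These were Utp20 (0.30, FDR = 0.0136), Rrp12 (0.25), Bysl (0.24), Nop14 (0.20) and Nat10 (0.21), of which Utp20 and Nop14 belong to the early processome and Nat10 acetylates 18S rRNA. Utp20 RNA was 272 to 284 CPM in wild-type and 333 to 357 CPM in Rpl10a LOF/LOF embryos, without overlap. Of the 6 fits that each left out an embryo, Utp20 was called in 6, Rrp12 in 5, Bysl in 2, Nat10 and Utp14a in 1 and Nop14 in 0. With the Y-linked covariate none of these calls held, while the log2 fold changes stayed near those without it. They were 0.32 for Utp20 (FDR = 0.116), 0.24 for Rrp12 (FDR = 0.308) and 0.23 for Bysl (FDR = 0.43, edgeR). Nop14 had 0.18 (FDR = 0.514), Nat10 0.23 (FDR = 0.443) and Utp14a 0.29 (FDR = 0.56, edgeR). Rps27l, a paralog of Rps27, rose in RNA (log2 fold change 0.28, SE 0.06, FDR = 0.0403, edgeR), with 167 to 186 CPM in wild-type and 199 to 221 CPM in Rpl10a LOF/LOF embryos. Its RPF were 154 to 186 and 179 to 240 CPM (log2 fold change 0.30, FDR = 0.239). Rack1, the scaffold protein on the head of the 40S, had log2 fold changes of -0.02 in RPF and 0.10 in RNA, neither called. Rps27l RNA was called in 5 of the 6 fits, with an FDR of 0.16 without WT replicate 1. With the Y-linked covariate its log2 fold change was 0.34 (FDR = 0.159, edgeR).

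Among 21 regulators of TOP mRNAs, Larp1 rose in RNA (0.25, FDR = 0.0482, edgeR), and Mlst8, a subunit of the mTOR complexes, rose in RPF (0.42, FDR = 0.0791). No other regulator was called, so that 1 of 21 passed in each measure, near the 5.02% and 2.19% of all transcripts. With an embryo left out Larp1 was called in 3 of 6 fits and Mlst8 in 1. With the Y-linked covariate their log2 fold changes were 0.23 and 0.45, and neither call held (FDR = 0.445 and 0.356, edgeR). Of 22 other TOP mRNAs 1 was called, Eif4b in RNA (0.18, FDR = 0.0782, edgeR), again near the share of all transcripts. Eif4b was called in 1 of the 6 fits that left out an embryo. With the Y-linked covariate its log2 fold change was 0.19, and it was not called (FDR = 0.443, edgeR). Of the 22 mRNAs 19 were higher in RNA, with a median of 0.06. The 43 large subunit genes tested, a list that leaves out Rpl10a, had no call, a median of -0.00 in RPF and 0.07 in RNA, and 40 of 43 higher in RNA. The 29 mitochondrial small subunit genes had no call either, with medians of 0.05 in RPF and 0.01 in RNA. No list had a call in TE.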

How the data were processed

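Ribosome profiling and RNA-seq libraries came from the same 6 embryos (3 per genotype), grouped by the submitters' labels. The authors trimmed reads, discarded those that bowtie2 placed on rRNA, tRNA or snRNA, mapped the others to canonical GRCm38/mm10 transcripts (1 per gene, from another GENCODE release than the one used here), and removed PCR duplicates with UMI-tools. The deposited values are whole-number counts without normalization, of RPF with the A site in the trimmed coding sequence and of RNA reads on the whole transcript.

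Filter, separate TMM scaling and FDR threshold (0.1) follow the authors, whose voom, limma, sva and locfdr steps lack a stated design. The test was therefore the edgeR (4.0.16, R 4.3.3) quasi-likelihood test with Benjamini-Hochberg adjustment, by genotype in RPF and RNA and by interaction in TE. Alternatives were DESeq2 (1.42.0), limma-voom (3.58.1), sva (3.50.0), other scaling, no filter, replicate and embryo blocks, a Y-linked covariate and each embryo left out. Members, lists and alternatives were chosen with earlier results of these data known. Embryo values were given for the 5 smallest p per measure and the 3 highest and lowest in wild-type RPF and ratio, and other lists by calls. Rps21, Rps14 and Rps25 as examples of the embryo pattern were picked after their values were seen.

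Annotation came from GENCODE M21. 14 transcripts of the table had no match there, and Fau and Rps14 matched in another version. In simulated data of 12576 transcripts the test called 79% in RPF, 95% in RNA and 71% in TE of 100 transcripts changed by 1 on the log2 scale, and 44%, 61% and 33% of 100 changed by 0.5. RPF depth was 7041357 to 10863499 counts per library.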

Additional observations from a re-analysis of the deposited data

How the results depend on the processing

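Of the 26 genes, the count called in RPF was 0 in 12 of the 14 alternatives, 3 with sva in limma-voom, which found 2 surrogate variables and called 1306 transcripts in all against 276, and 2 without LOF replicate 2 (1449 in all). In RNA it was 0 in 12 of 14, 1 with DESeq2 and 1 without LOF replicate 1, Rps19 in each. In TE it was 0 in all 15. When embryos were left out one at a time, the number called ran from 0 to 2 in RPF, from 0 to 1 in RNA and was 0 in TE, and the median log2 fold change ran from -0.06 to 0.04 in RPF, from 0.04 to 0.09 in RNA and from -0.14 to -0.00 in TE. With the Y-linked covariate the RNA median was 0.030, the TE median 0.024, Rps20 turned to 0.090 in RPF and 0.070 in TE, and 28 transcripts were called in RPF and 92 in RNA. The cause was not tested. Over all transcripts, leaving out an embryo moved the RPF calls between 4 (without WT replicate 2) and 1449. The wild-type ratio had a median of 0.31 without division by length, 1.02 with the whole coding length, and 1.11 to 1.17 with a wild-type embryo left out.

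The replicate numbers of the labels belong to different embryos, and the deviations of same-numbered embryos correlated at -0.08 to 0.01 in RPF and -0.10 to 0.09 in RNA, so the numbers were not taken as pairs. With the replicate block 0 of the 26 genes were called in RPF, RNA or TE, with medians of -0.03, 0.07 and -0.08, and 313 and 528 transcripts were called in RPF and RNA. With a block for the embryo shared by its libraries (limma-voom), 0 were called in TE. Fau and Rps18 rest on 10 to 18 and 17 to 37 RPF counts per library and Rps7 and Rps15a on 90 to 147 and 94 to 174, so their RPF intervals are wide. Rps12 and Rps27 had 0 RPF counts, so an RPF change in them could not be measured, and the reason for these 0 counts was not tested.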
